A study of Mus musculus with 12 samples.

Results

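The genes described here are 9 mouse genes of retinoic acid metabolism and signalling, out of 54532 genes in the deposited expression table. They are Stra6, Rdh10, Aldh1a1, Aldh1a2, Aldh1a3, Crabp2, Cyp26b1, Rarb and Rarg. The set was chosen by pathway membership and by measured values, since Aldh1a2 and Cyp26b1 had large differences between the genotypes in these same libraries. The differences between genotypes are therefore given for the 9 genes as a description without a test. The effect of the culture medium averaged over both genotypes, which does not use those differences, was tested. Earlier results of these data were known when the genes were chosen, and the test does not allow for that.

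RNA was sequenced from 12 cultures of passage 3 mouse bone marrow mesenchymal stem cells, with 3 libraries in each of 4 groups. The cells had been flushed from the long bones of 4-week-old C57BL/6 mice. Control cells came from Chd7 fl/fl mice, whose floxed alleles were intact. Knockout cells came from Prx1-cre;Chd7 fl/fl mice, in which exon 2 of Chd7, the gene of a chromatin remodeler, is deleted in cells that have expressed the Prx1 enhancer of early limb mesenchyme. Both genotypes thus carried the floxed alleles, and only the second carried the Cre transgene. RNA was taken 5 days after a switch to osteogenic medium (10 nM dexamethasone, 10 mM β-glycerophosphate, 50 µM ascorbic acid) or to adipogenic medium (1 µM dexamethasone, 0.5 µM isobutylmethylxanthine, 10 µg/ml insulin). Both media thus contained dexamethasone, at different doses. The labels do not say whether the 3 libraries of a group came from separate animals, so p-values measure only the spread between these samples, which may be technical.

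Retinoic acid is made inside cells from retinol, a form of vitamin A. Retinol enters through receptors such as STRA6, is oxidised to retinaldehyde by retinol dehydrogenases such as RDH10, and is then oxidised irreversibly to retinoic acid by the retinaldehyde dehydrogenases ALDH1A1, ALDH1A2 and ALDH1A3. CRABP2 carries retinoic acid to the nucleus, where the receptors RARA, RARB and RARG, paired with retinoid X receptors, bind response elements in DNA, while CYP26 enzymes hydroxylate and inactivate it. In the skeleton, retinoic acid is known to act on cartilage, osteoblasts and marrow stroma, and in adipocyte cultures it is known to oppose early differentiation.

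The values are FPKM, fragments scaled to transcript length and by a factor for each library, so levels can be compared between genes per unit of length. The factors did not follow the fragment totals alone, since the FPKM of a library summed to 295244 to 380097 while the median ratio between libraries was nearly the same in all 12. The FPKM of each library matched whole fragments, and the totals recovered this way were 17496340 to 21099587 fragments per library. In these libraries 3 fragments from a transcript of 1 kb equal 0.143 to 0.185 FPKM. A gene was tested when it reached 1 FPKM in at least 3 libraries. Of the 9 genes 5 did so (Rdh10, Aldh1a2, Crabp2, Cyp26b1 and Rarg) and 4 did not (Stra6, Aldh1a1, Aldh1a3 and Rarb). Cyp26b1 reached 1 FPKM in 6 libraries, 3 in each medium, those of the osteogenic controls and the adipogenic knockouts, so it passed only through the groups where it was high. Nearest below the limit was Aldh1a3, with 0.991 FPKM at most.

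Chd7 itself was measured first. Its level was 2.64, 2.67 and 2.77 FPKM in the osteogenic controls and 2.03, 2.35 and 2.28 in the osteogenic libraries labelled knockout. In adipogenic medium it was 2.26, 1.81 and 2.23 FPKM in the controls and 2.03, 2.35 and 2.48 in the libraries labelled knockout. The knockout libraries were thus lower without overlap in osteogenic medium, where 23.2% of all tested genes were, and the groups overlapped in adipogenic medium. Neither difference passed the limma test (log2 difference -0.20, adjusted p = 0.160, and 0.09, adjusted p = 0.428). Exon 2 is 1825 bases, 13.2% of the gene's exonic length, so a value for the whole gene responds little to its loss. The level of Chd7 therefore does not check the label of the adipogenic libraries, and knockout is used below as the name of the labelled groups.

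The cell type labels were compared with marker genes. Of the 12 listed stromal markers 10 were over the filter. Col1a1 (587 to 1073 FPKM) and Itgb1, the gene of CD29 (317 to 412 FPKM), were abundant, which alone does not identify the cell type. Thy1, which encodes the mesenchymal surface marker CD90, reached 1.03 FPKM at most. All 13 macrophage markers were detected, led by Lyz2 at 3845 to 14412 FPKM, and Ptprc, the gene of the leukocyte marker CD45, was at 7.63 to 23.0 FPKM. The adipocyte genes Adipoq, Plin1, Cidec and Lep were under 1 FPKM in all 12 libraries, those in adipogenic medium included. The other 3 of the 7 listed adipocyte markers, Fabp4, Pparg and Cebpa, were over the filter. All 7 summed to 57.5 to 152 FPKM, led by Cebpa, which macrophages also express. In the controls the sum without Cebpa was 40.5 to 43.5 FPKM in osteogenic and 16.7 to 30.3 FPKM in adipogenic medium. In the knockouts it was 27.3 to 30.7 FPKM in osteogenic and 46.3 to 50.3 FPKM in adipogenic medium. Alpl, an early osteoblast gene, was at 4.41 to 6.62 FPKM in osteogenic medium and at 22.0 to 57.5 FPKM in adipogenic medium. Alpl, the 4 adipocyte genes under 1 FPKM and the adipocyte sums of the controls thus do not bear out the medium labels. The sum without Cebpa in the knockouts goes in the direction of the labels. Other genes were not used to check them. From its RNA sequencing the paper reports, for knockouts, lower osteogenesis gene sets in osteogenic medium and higher PPAR gene sets in both media. Adipogenesis gene sets were higher in adipogenic medium. In separate assays it reports less mineral and lower osteogenic genes such as Runx2 in knockouts after osteogenic induction. After adipogenic induction it reports more lipid droplets and higher Adipoq, Cebpa, Pparg, Plin1 and Cd36. All of these compared the genotypes within a medium. The cultures are therefore described by the labelled medium and not by the cell type it is meant to produce, and every effect of the medium below, that of Rarg included, rests on the labels.

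Some libraries stood apart from their groups. Control adipogenic library 2 had a mean correlation of 0.941 with the other libraries of its group, over log2(FPKM + 1) of the tested genes, of 0.981 with the osteogenic controls and of 0.984 with the osteogenic knockouts. Its macrophage marker sum was 7934 FPKM, against 17477 and 17794 in the other 2 libraries of the group. Whether its label is right was not tested. Knockout adipogenic library 1 stood apart less, with a mean correlation of 0.981 with its own group. Several counts and single results are given with and without them.

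**Figure D1:**
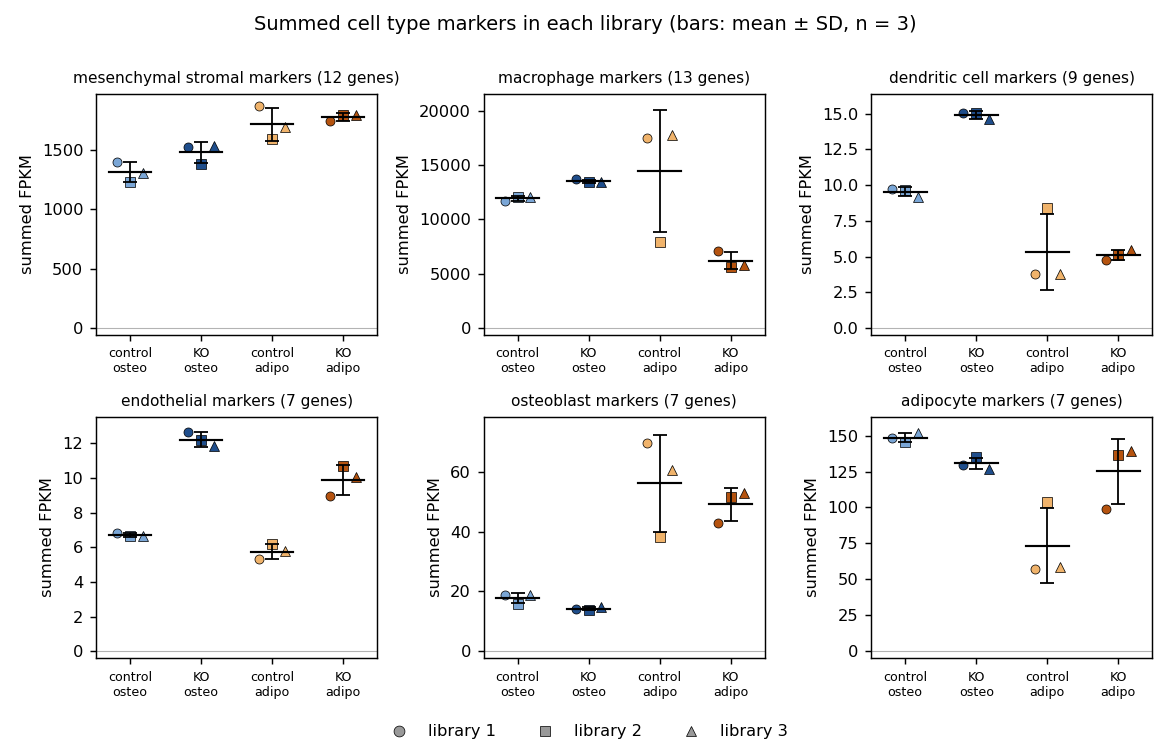
Summed FPKM of 6 cell type marker lists in each of the 12 libraries, by group, with bars for the mean ± SD of 3 libraries. Control adipogenic library 2 has a macrophage sum of 7934 FPKM, far under the other libraries of its group, and the endothelial sum is higher in the knockout than in the control libraries in both media.

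The uptake receptor Stra6 (ENSMUSG00000032327, chr9:58063788-58153996) was close to the limit of detection. It had 0 to 6 fragments in a library, or 0 to 0.0582 FPKM, and the groups summed to 7, 6, 2 and 7 fragments in the osteogenic controls, osteogenic knockouts, adipogenic controls and adipogenic knockouts. A difference between groups was not detectable at this depth.

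Rdh10 (ENSMUSG00000025921, chr1:16105774-16133734), which catalyses the first oxidation step, varied little. Its level was 3.37, 3.65 and 3.60 FPKM in the osteogenic controls and 4.08, 3.59 and 3.92 in the osteogenic knockouts. In adipogenic medium it was 4.37, 4.72 and 4.67 FPKM in the controls and 3.69, 4.67 and 4.35 in the knockouts. The genotypes overlapped in both media, and the fitted log2 differences on the log2(FPKM + 1) scale were 0.10 (SE 0.07) in osteogenic and -0.10 (SE 0.07) in adipogenic medium.

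Aldh1a2 (ENSMUSG00000013584, chr9:71215789-71296243, plus strand) was the most abundant of the 3 retinaldehyde dehydrogenases in every library. It is the main source of retinoic acid in the early embryo. Its level was 2.31, 2.44 and 2.67 FPKM in the osteogenic controls and 9.29, 8.45 and 9.31 in the osteogenic knockouts. All 3 knockout libraries lay above all controls, with group means of 2.48 ± 0.183 and 9.02 ± 0.494 FPKM (SD, n = 3), a ratio of 3.64. In adipogenic medium the controls had 8.20, 4.43 and 8.04 FPKM and the knockouts 4.23, 4.40 and 4.83. Libraries 1 and 3 of those controls were near the osteogenic knockouts, while control library 2 fell within the range of the adipogenic knockouts. From highest to lowest, the groups were the osteogenic knockouts, the adipogenic controls, the adipogenic knockouts and the osteogenic controls, and the middle 2 of these overlapped. For Aldh1a2 and the genes below, a lack of overlap stands beside shares of all tested genes. In osteogenic medium 21% of them had the knockouts above the controls without overlap and 23.2% below. In adipogenic medium these shares were 20.2% and 18.4%.

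The fitted log2 difference of Aldh1a2 between knockout and control was 1.53 (SE 0.17) in osteogenic and -0.48 (SE 0.17) in adipogenic medium. Without control adipogenic library 2 the latter was -0.73, and without both libraries that stood apart it was -0.70. The sign was opposite in the media in each case, and these are the differences on which Aldh1a2 was selected.

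The promoters of Aldh1a2 and Cyp26b1 are shown because, of the 5 genes over the filter, Aldh1a2 had the largest fitted difference between the genotypes in osteogenic medium and Cyp26b1 in adipogenic medium. The sequences are from RefSeq on GRCm38.p6, read 5′ to 3′ on the strand of the gene. The windows reach from 250 bases before to 50 after the transcription start, and only bases outside annotated exons are printed. Searched for was the retinoic acid receptor half-site RGKTCA on both strands, where R stands for a purine and K for a keto base (guanine or thymine), and direct repeats of it spaced by 1, 2 or 5 bases (DR1, DR2 and DR5), each of which holds 2 half-sites by definition. No half-site was in either window of 300 bases, so the sequences have no capitals. The first lies at chr9:71215539-71215788 on the plus strand, the second at chr6:84593909-84594060 on the minus strand.
Aldh1a2: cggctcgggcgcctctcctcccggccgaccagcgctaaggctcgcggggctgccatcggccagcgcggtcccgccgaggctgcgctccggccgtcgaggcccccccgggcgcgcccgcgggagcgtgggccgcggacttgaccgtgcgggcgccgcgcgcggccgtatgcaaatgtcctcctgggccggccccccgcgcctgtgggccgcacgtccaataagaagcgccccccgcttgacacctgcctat
Cyp26b1: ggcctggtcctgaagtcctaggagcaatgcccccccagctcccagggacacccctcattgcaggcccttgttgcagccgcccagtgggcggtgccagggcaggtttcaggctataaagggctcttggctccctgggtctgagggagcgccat
The G and C content of the printed bases was 77.6% for Aldh1a2 and 65.1% for Cyp26b1. The lack of a match says only that these letters are not in these windows.

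Of the 9 genes 6 had at least 1 RefSeq window, 11 windows in all (Aldh1a1, Aldh1a2, Cyp26b1, Rarb, Rarg and Stra6), and 4 of the 11 held a half-site. Over all 32851 windows the share with a half-site was 43.7%, and the shares with a DR1, a DR2 and a DR5 were 0.222%, 0.268% and 0.0974%. The window of Rarb was the only one of the 11 with a direct repeat, a DR5. The Rarb promoter is the textbook case of a retinoic acid response element of this kind. It is shown for that reason, with both half-sites in capitals, at chr14:16575506-16575535 on the minus strand, where the annotation also places an exon of Rarb.
Rarb: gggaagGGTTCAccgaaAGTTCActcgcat
The repeat runs from 53 to 37 bases before the transcription start. The match is a description of the letters and no measurement of binding.

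The other 2 retinaldehyde dehydrogenases were low. Aldh1a3 (ENSMUSG00000015134, chr7:66390890-66427517) had 0.394, 0.258 and 0.282 FPKM in the osteogenic controls and 0.494, 0.383 and 0.440 in the knockouts. With adipogenic medium it had 0.277, 0.507 and 0.414 FPKM in the controls and 0.807, 0.862 and 0.991 in the knockouts. The genotypes overlapped in osteogenic medium, and in adipogenic medium every knockout library was above every control. Summed over the groups, 232 fragments in the adipogenic knockouts stood against 101 in the controls, a ratio of 2.17 with the scaling of the FPKM values. The other ratios of fragments are scaled in the same way. Such ratios carry both counting error and the spread between libraries, and they are given without a test.

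Aldh1a1 (ENSMUSG00000053279, chr19:20492715-20643465) had 0 to 29 fragments in a library. The groups summed to 11 fragments in the osteogenic controls, 29 in the osteogenic knockouts, 10 in the adipogenic controls and 68 in the adipogenic knockouts. The knockout to control ratio was 2.56 in osteogenic and 6.43 in adipogenic medium. The libraries of the 2 genotypes did not overlap in either medium. These values are uncertain because the fragments are few. Reads may also have been assigned to the related gene Aldh1a7, which was at 0 to 0.535 FPKM. The sequences of the 2 genes were not compared here.

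Crabp2 (ENSMUSG00000004885, chr3:87948666-87953376), which encodes the retinoic acid carrier, was high in the osteogenic knockouts. Its level was 1.84, 1.48 and 1.58 FPKM in the osteogenic controls and 7.20, 5.23 and 5.19 in the osteogenic knockouts. The groups did not overlap, with means of 1.63 ± 0.181 and 5.87 ± 1.15 FPKM (SD, n = 3), a ratio of 3.59. The adipogenic values were 1.98, 3.07 and 1.40 FPKM in the controls and 1.17, 1.69 and 1.47 in the knockouts. There the genotypes overlapped, and the highest control was again library 2. The fitted log2 differences were 1.37 (SE 0.18) and -0.34 (SE 0.18), and the latter was -0.05 without both libraries that stood apart. The osteogenic knockouts formed the highest group, and the other 3 groups overlapped one another in part.

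Cyp26b1 (ENSMUSG00000063415, chr6:84571414-84593908, minus strand) encodes an enzyme that breaks retinoic acid down. Its level was 1.37, 1.47 and 1.38 FPKM in the osteogenic controls and 0.749, 0.868 and 0.903 in the osteogenic knockouts. The adipogenic values were 0.500, 0.634 and 0.588 FPKM in the controls and 2.0, 3.45 and 3.15 in the knockouts. Every osteogenic knockout library was below every osteogenic control, and every adipogenic knockout library was above every adipogenic control. The adipogenic group means were 0.574 ± 0.0679 and 2.86 ± 0.764 FPKM (SD, n = 3), a ratio of 4.99, and the osteogenic control mean was 1.68 times the knockout mean. The order of the groups, from the adipogenic knockouts through the osteogenic controls and osteogenic knockouts to the adipogenic controls, had no overlap between neighbours.

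The fitted log2 difference of Cyp26b1 was -0.39 (SE 0.13) in osteogenic and 1.28 (SE 0.13) in adipogenic medium, on a scale that understates changes of genes near 1 FPKM. With a pseudocount of 0.1 in place of 1 the differences were -0.68 and 2.11. Knockout adipogenic library 1 was the lowest of its group, and the adipogenic difference was 1.45 without it. Cyp26b1 and Aldh1a2 thus had opposite signs within each medium, and these are the values that chose them.

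Among the receptors Rarg was the most abundant of the retinoic acid receptors. Rarg (ENSMUSG00000001288, chr15:102234938-102257517) had 8.70, 8.78 and 9.49 FPKM in the osteogenic controls and 10.6, 10.7 and 9.97 in the osteogenic knockouts. In adipogenic medium it had 10.6, 11.1 and 11.2 FPKM in the controls and 14.5, 15.3 and 15.4 in the knockouts. Every knockout library was above every control of its medium, as for 21% and 20.2% of all tested genes in osteogenic and adipogenic medium. The ratios of the means were 1.16 and 1.37. The adipogenic knockouts were the highest group and the osteogenic controls the lowest, and the other 2 groups overlapped. The fitted log2 differences were 0.19 (SE 0.05) and 0.42 (SE 0.05).

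Rarb (ENSMUSG00000017491, chr14:16430839-16819156), a gene known to be induced by retinoic acid through its own promoter, had 12 to 41 fragments in a library. Its level was 0.126 to 0.204 FPKM in the osteogenic controls, 0.137 to 0.189 in the osteogenic knockouts and 0.141 to 0.185 in the adipogenic controls, and 0.263, 0.413 and 0.280 in the adipogenic knockouts. The last group was above all others, at 95 fragments against 44 in the adipogenic controls (ratio 2.04). Rarb is uncertain for a separate reason. It shares 34.1% of its exonic bases with Top2b on the opposite strand, and Top2b was at 7.57 to 9.52 FPKM. The library kit named in the methods is not stated to keep the strand, so fragments of the shared bases cannot be assigned with confidence.

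**Figure D2:**
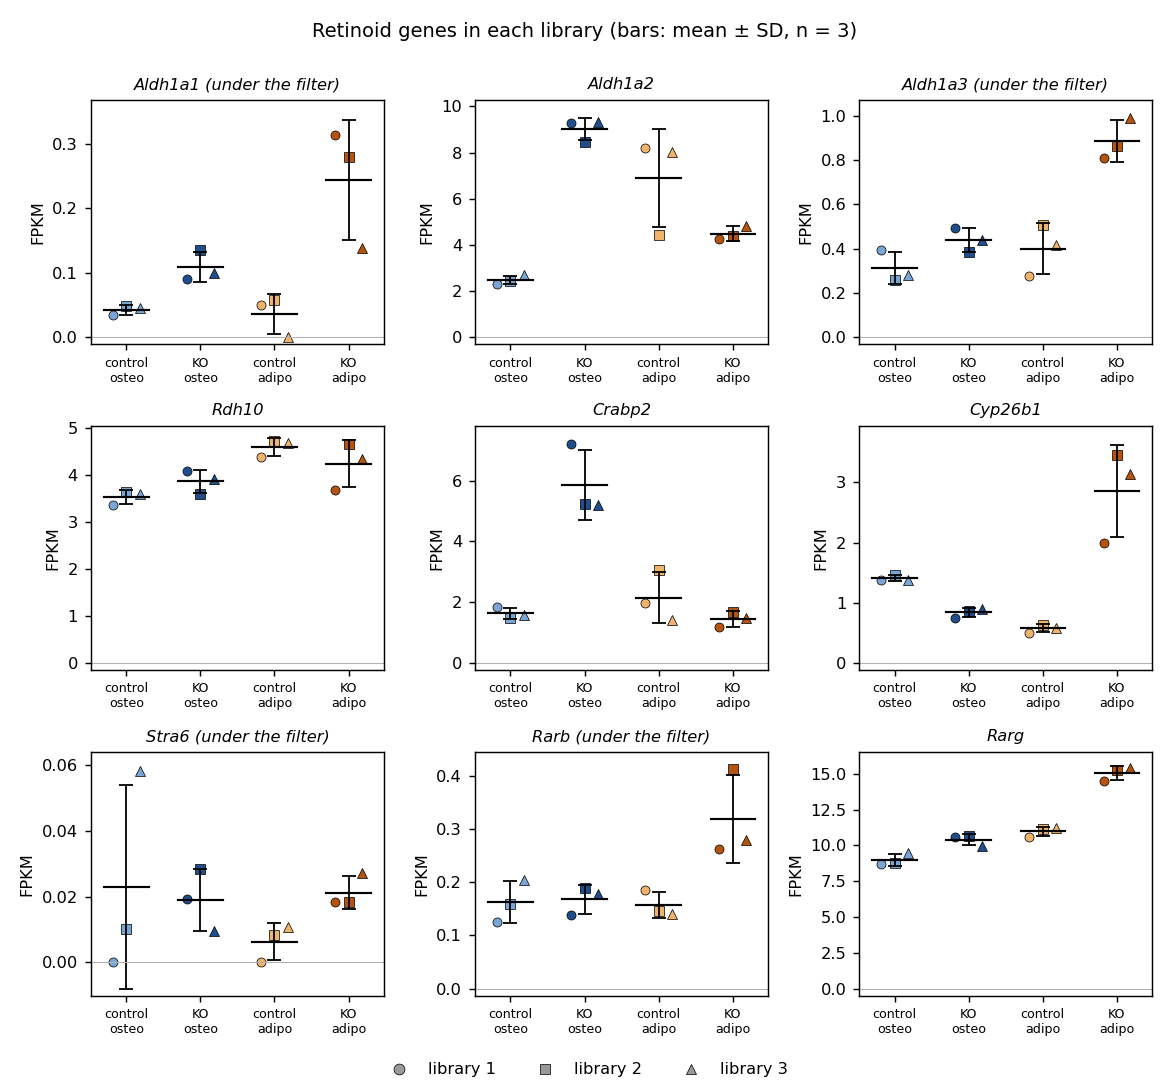
FPKM of the 9 retinoid genes in each of the 12 libraries, by group, with bars for the mean ± SD of 3 libraries, and 4 genes marked as under the filter of 1 FPKM in 3 libraries. Aldh1a2 and Crabp2 are highest in the osteogenic knockouts, with means of 9.02 and 5.87 FPKM, and Cyp26b1 is highest in the adipogenic knockouts, with a mean of 2.86 FPKM.

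**Figure D3:**
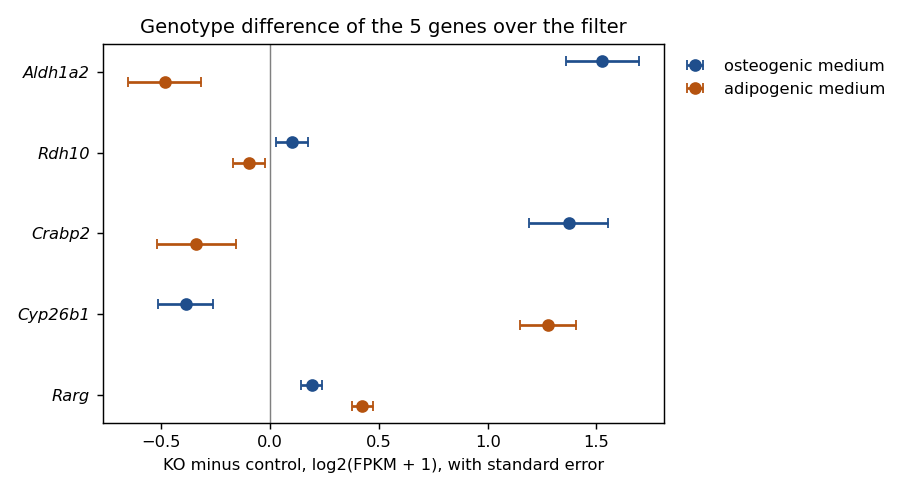
Knockout minus control difference in log2(FPKM + 1) of the 5 genes over the filter, with its standard error, in osteogenic and adipogenic medium. Aldh1a2 and Crabp2 lie at 1.53 and 1.37 in osteogenic medium and below 0 in adipogenic medium, and Cyp26b1 lies at -0.39 and 1.28.

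Over all 12871 tested genes limma called 4.94% higher and 4.15% lower in the osteogenic knockouts (adjusted p under 0.05), and 16.7% higher and 16.5% lower in the adipogenic knockouts. The difference between genotypes was more positive in adipogenic medium for 10.9% and more negative for 9.58%. No calls of the 9 genes are counted in these contrasts, from which they were chosen. When each library was rescaled to the same sum instead, the median gene moved to 0.14 in adipogenic medium and to 0.16 in the difference between the media. The share of called genes that were higher went from 50.4% to 78.4% in the former and from 53.1% to 75.4% in the latter. How many genes counted as higher or lower thus depended on the scaling. Under the same rescaling Rarg had a log2 difference of 0.60 in adipogenic medium, and Rdh10 one of 0.05.

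With equal groups, the effect of the medium over both genotypes is independent of the genotype differences that chose the genes. Earlier results of these data were known when the genes were chosen. Whether the choice was independent of the medium effect itself therefore cannot be shown, and the p-values do not allow for it. In the comparison of the media 14.9% of all genes were called higher and 16.5% lower in adipogenic medium. Rarg rose by 0.38 on the log2(FPKM + 1) scale (SE 0.03, 95% interval 0.30 to 0.45, limma adjusted p = 6.08e-05). Its mean was 9.69 FPKM in osteogenic and 13 FPKM in adipogenic medium, and within each genotype every adipogenic library was above every osteogenic one. Rarg passed under every alternative that was run, with a range of 0.35 to 0.41.

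Crabp2 was lower in adipogenic medium by the average over genotypes (log2 difference -0.63, SE 0.13, limma adjusted p = 0.00554). The average joins unlike parts, with 0.23 (SE 0.18) in the controls, whose media overlapped, and -1.49 (SE 0.18) in the knockouts, whose media did not. Rdh10 was higher (0.20, SE 0.05, limma adjusted p = 0.0157), with every adipogenic control above every osteogenic control, and with overlap among the knockouts. The call of Rdh10 was lost when libraries were rescaled to the same sum (log2 difference 0.17, limma adjusted p = 0.105, the highest of a range from 0.00157 over the alternatives). With the replicate number as a block this call was lost too (0.20, limma adjusted p = 0.0553).

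Aldh1a2 (0.14, SE 0.12, limma adjusted p = 0.397) and Cyp26b1 (0.22, SE 0.09, limma adjusted p = 0.0909) did not pass. For Aldh1a2 the average hides opposite parts, 1.14 (SE 0.17) in the controls and -0.87 (SE 0.17) in the knockouts, and for Cyp26b1 -0.61 (SE 0.13) and 1.05 (SE 0.13). Without control adipogenic library 2 the medium effect of Aldh1a2 was 0.26, and without knockout adipogenic library 1 that of Cyp26b1 was 0.31. With unequal groups the medium effect is no longer independent of the genotype differences that chose these genes, so no test result is given for these fits.

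**Figure D4:**
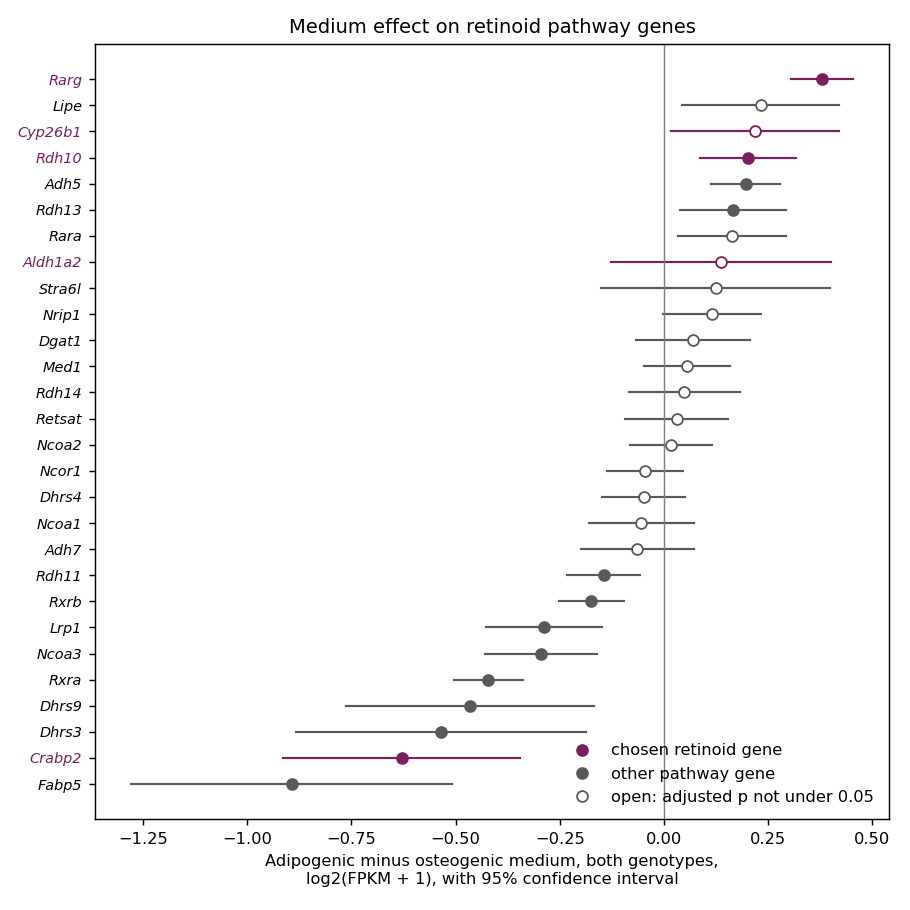
Adipogenic minus osteogenic difference in log2(FPKM + 1), averaged over both genotypes, with its 95% confidence interval, for the 5 retinoid genes over the filter and 23 other pathway genes. Filled points passed limma at an adjusted p of 0.05, with Rarg at 0.38 as the highest and Fabp5 at -0.89 as the lowest.

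A further 48 genes of the pathway were listed by role, and 23 of them were tested. The list was chosen with earlier results of these data known, which its p-values and counts do not allow for. Of the 25 under the filter the highest value in any library was 1.69 FPKM. These included both other CYP26 enzymes, Cyp26a1 and Cyp26c1, at 0.247 FPKM or less, so that Cyp26b1 was the most abundant of the 3 hydroxylases. Crabp1 and Rxrg were also under the filter.

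In osteogenic medium 0 of the 23 genes passed limma, where 4.94% and 4.15% of all genes were called higher and lower. At an unadjusted p under 0.05 there were 11, of which 2 were higher and 9 lower, where 23.3% of all genes had such a p in either direction, and with limma voom on recovered fragments 0 passed. The median log2 difference was -0.06, against -0.01 over all genes. Control adipogenic library 2 bears on this count although it is not in the comparison, since all groups share 1 estimate of the spread. Without it 1 gene was called higher and 8 lower, where 11.5% and 10.8% of all genes were. Without both libraries that stood apart the counts were 3 and 10, where 13.9% and 14.4% of all genes were.

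In adipogenic medium 3 of the 23 genes were higher in the knockouts and 1 lower, where 16.7% and 16.5% of all genes were. Adh7, a class IV alcohol dehydrogenase that oxidises retinol, fell from 1.43, 1.69 and 1.27 FPKM in the controls to 0.647, 0.812 and 0.570 in the knockouts. Its groups did not overlap (log2 difference -0.55, SE 0.09, limma adjusted p = 0.00108). Adh5, a class III alcohol dehydrogenase, rose by 0.27 (SE 0.05, limma adjusted p = 0.00403), from a mean of 16.4 to one of 19.9 FPKM. Rara, the third retinoic acid receptor gene, rose by 0.25 (SE 0.08, limma adjusted p = 0.0401), and Retsat, which saturates retinol, by 0.23 (SE 0.08, limma adjusted p = 0.0466). The calls of Rara and Retsat were near the threshold and were lost in 12 and 15 of the 21 alternatives (limma adjusted p from 0.00122 to 0.140 and from 0.00204 to 0.158). The median of the 23 was 0.09, against -0.01 over all genes. Without control adipogenic library 2 the counts were 7 higher and 4 lower, where 24.4% and 26.8% of all genes were, and without both libraries that stood apart 10 and 4, where 25.2% and 26.7% of all genes were. After rescaling to the same sum, 10 were higher and 1 lower, where 25.3% and 6.96% of all genes were.

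**Figure D5:**
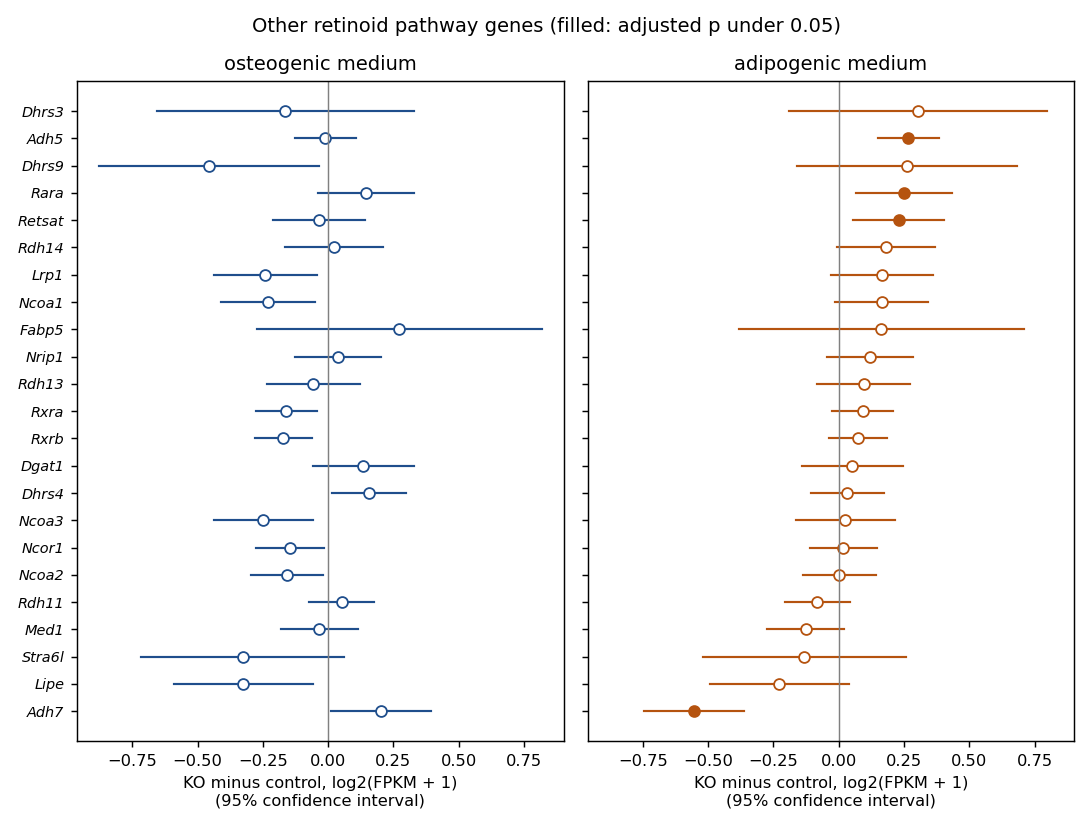
Knockout minus control difference in log2(FPKM + 1), with its 95% confidence interval, of 23 other retinoid pathway genes in osteogenic and adipogenic medium. Filled points passed limma at an adjusted p of 0.05, which 0 genes did in osteogenic and 4 in adipogenic medium, with Adh7 lowest at -0.55.

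The difference between genotypes differed between the media for 6 of the 23 genes, 5 more positive in adipogenic medium and 1 more negative, where 10.9% and 9.58% of all genes were. Those more positive were Lrp1, Ncoa1, Adh5, Rxra and Rxrb, and the one more negative was Adh7. With each library left out in turn, 1 to 11 of the 23 passed in either direction. The counts were 10 and 1 without control adipogenic library 2, where 19.8% and 22.5% of all genes were. Without both libraries that stood apart the counts were 11 and 1, where 21.6% and 24.1% of all genes were.

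Across media, 2 of the 23 genes were higher in adipogenic medium and 8 lower, where 14.9% and 16.5% of all genes were, and the median was -0.04 against 0.01 over all genes. Without control adipogenic library 2 the counts were 7 and 8, where 27.7% and 24.1% of all genes were, and after rescaling to the same sum 0 and 6, where 8.75% and 10.5% were. Rxra, the most abundant retinoid X receptor, fell by 0.42 (SE 0.04, limma adjusted p = 5.84e-05). Its group means were 41.4 and 37.0 FPKM in the osteogenic controls and knockouts, and 28.1 and 29.9 FPKM in the adipogenic ones. Rxrb fell by 0.17 (SE 0.03, limma adjusted p = 0.00519), with -0.30 (SE 0.05) in the controls and -0.05 (SE 0.05) in the knockouts. By the average over genotypes the receptor genes thus moved in different directions, with Rarg higher and both tested retinoid X receptors lower in adipogenic medium. These directions were the same after rescaling to the same sum.

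Fabp5, which encodes a second carrier of retinoic acid, fell by 0.89 (SE 0.17, limma adjusted p = 0.00439) in adipogenic medium. Its values were 277, 285 and 298 FPKM in the osteogenic controls and 125, 270 and 120 in the adipogenic controls, where library 2 was again the one that stood near the osteogenic level. Without that library the medium effect was -1.08 (limma adjusted p = 1.88e-07, in a range from 2.38e-08 to 0.0150 over the alternatives). Dhrs3, which reduces retinaldehyde back to retinol, fell by 0.53 (SE 0.16, limma adjusted p = 0.0274), and Dhrs9, a retinol dehydrogenase, by 0.47 (SE 0.13, limma adjusted p = 0.0253). The average of Dhrs9 joins -0.83 (SE 0.19) in the controls and -0.11 (SE 0.19) in the knockouts. Smaller declines passed for the coactivator gene Ncoa3 (-0.29), the lipoprotein receptor gene Lrp1 (-0.29) and the retinol dehydrogenase gene Rdh11 (-0.15). In the controls and knockouts these were -0.43 and -0.16 for Ncoa3, -0.49 and -0.08 for Lrp1, and -0.08 and -0.21 for Rdh11. Adh5 (0.20) and Rdh13 (0.17) were higher, and neither passed after rescaling to the same sum, nor did Dhrs3 and Rdh11. Of the 21 alternatives Rdh13 lost its call in 16, Dhrs3 in 10, Dhrs9 in 7, Rdh11 in 2 and Adh5 in 1.

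Genes known to be induced by retinoic acid in other systems were examined as a separate list of 15. That list too was chosen with earlier results of these data known, which its p-values and counts do not allow for. Of the 15 genes 6 were tested. In osteogenic medium 1 of them, Rai14, was higher in the knockouts and 0 were lower by limma, where 4.94% and 4.15% of all genes were (2 and 1 at an unadjusted p under 0.05, and 1 gene in all with limma voom). Without control adipogenic library 2 the counts were 2 and 0, where 11.5% and 10.8% of all genes were. Rai14 had 11.2, 10.3 and 11.6 FPKM in the controls and 16.3, 15.7 and 16.4 in the knockouts, without overlap (log2 difference 0.51, SE 0.06, limma adjusted p = 0.00128). In adipogenic medium Rai14 differed by -0.01 (SE 0.06). Its interaction passed, at -0.52 (SE 0.09, limma adjusted p = 0.00373). This interaction call was lost after rescaling to the same sum. Over the 21 alternatives the interaction was -0.57 to -0.34 (limma adjusted p from 0.000713 to 0.175).

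In adipogenic medium 0 of the 6 were higher by limma and 1 was lower, where 16.7% and 16.5% of all genes were (2 and 1 at an unadjusted p under 0.05, where 44.4% of all genes had such a p, and 2 genes in all with limma voom). After rescaling to the same sum 2 were higher, Nr2f2 and Rarres1, and 1 was lower, where 25.3% and 6.96% of all genes were, and without control adipogenic library 2 the counts were 1 and 2, where 24.4% and 26.8% were. Tgm2, which encodes a transglutaminase, had 68.5, 54.5 and 61.4 FPKM in the controls and 41.7, 28.3 and 31.2 in the knockouts, and fell by 0.86 (SE 0.12, limma adjusted p = 0.000692). Across media Rarres1 was higher in adipogenic medium by 0.28 (SE 0.07, limma adjusted p = 0.0191) and Nr2f2 lower by 0.19 on the same scale (log2 difference -0.19, SE 0.06, limma adjusted p = 0.0435). The call of Nr2f2 was lost in 15 of the 21 alternatives (limma adjusted p from 0.0191 to 0.112) and that of Rarres1 in 2 (from 0.0117 to 0.0700), and after rescaling to the same sum 0 of the 6 passed limma for the medium. The medians of the 6 were 0.16 and 0.07 for the genotypes in osteogenic and adipogenic medium and -0.10 for the medium, against -0.01, -0.01 and 0.01 over all genes. Cd38, also on this list, had 33.2, 1.61 and 31.5 FPKM in the adipogenic controls and 22.4, 5.78 and 6.21 in the adipogenic knockouts, so that both libraries that stood apart did so here. It did not pass with all libraries (log2 difference -0.45, limma adjusted p = 0.723). Without control adipogenic library 2 the adipogenic difference of Cd38 was -1.67 and its interaction -2.36. Without both libraries the adipogenic difference was -2.26. Cd38 was named after the values of these libraries had been seen, so no p-value is given without them.

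Among the tested genes whose levels most resembled those of Aldh1a2 over the 12 libraries were Slit2 (Pearson r of 0.969), Pxdn (0.969), Pecam1 (0.961) and Rhbdd2 (0.955). For Cyp26b1 they were Rab15 (0.987), Mxd4 (0.975), Adam9 (0.975), Abl2 (0.975) and Zbtb16 (0.971). The correlations are over log2(FPKM + 1), and they reflect 4 group means that the libraries share, so they are given as a description without a p-value. Zbtb16, the gene of a transcription factor, had group means of 1.96 and 0.349 FPKM in the osteogenic controls and knockouts and 0.150 and 3.96 FPKM in the adipogenic ones, the same order of groups as Cyp26b1.

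Markers of other cell types also differed between the groups. Pecam1, the gene of the endothelial marker CD31, had 0.452, 0.382 and 0.427 FPKM in the osteogenic controls and 1.47, 1.56 and 1.37 in the osteogenic knockouts. In adipogenic medium it had 1.33, 0.476 and 1.35 FPKM in the controls and 0.787, 0.809 and 0.853 in the knockouts. The order of the group means was that of Aldh1a2. Control library 2 was the lowest adipogenic control for both genes, but below the knockouts for Pecam1 and within their range for Aldh1a2. Of the 5 tested endothelial markers 4 were above the controls without overlap in the osteogenic knockouts and 0 below, where 21% and 23.2% of all tested genes were. In the adipogenic knockouts 2 were above and 0 below, where 20.2% and 18.4% of all tested genes were. Their sum was 6.84, 6.63 and 6.65 FPKM in the osteogenic controls, 12.6, 12.2 and 11.8 in the osteogenic knockouts, 5.31, 6.18 and 5.75 in the adipogenic controls and 8.96, 10.7 and 10.1 in the adipogenic knockouts. The most abundant was Vwf, at 1.00 to 4.36 FPKM, and Tek and Tie1 were under 1 FPKM in all libraries.

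The macrophage markers, 13 in number, summed to 11641, 12086 and 12019 FPKM in the osteogenic controls and 13670, 13440 and 13406 in the osteogenic knockouts. In adipogenic medium the sums were 17477, 7934 and 17794 FPKM in the controls and 7066, 5650 and 5797 in the knockouts. The higher osteogenic sum of the knockouts came from Lyz2. Without Lyz2 the sums were 2684, 2731 and 2785 FPKM in the osteogenic controls and 2421, 2407 and 2350 in the osteogenic knockouts, and they were 3599, 2478 and 3382 in the adipogenic controls and 2056, 1805 and 1810 in the adipogenic knockouts. Of the 13 markers 2 were above and 8 below the controls without overlap in the osteogenic knockouts, against the shares of 21% and 23.2% of all tested genes, and 0 and 7 in the adipogenic knockouts, against 20.2% and 18.4%. The 9 dendritic cell markers summed to 9.15 to 9.75 FPKM in the osteogenic controls and 14.6 to 15.1 in the osteogenic knockouts. In adipogenic medium they summed to 3.78 to 8.38 FPKM in the controls and 4.73 to 5.48 in the knockouts. The most abundant was Itgax, at 0.925 to 13.2 FPKM, which macrophages also express. Without Itgax the osteogenic sums overlapped (1.78 to 2.16 FPKM in the controls, 1.84 to 2.15 in the knockouts), and the adipogenic ones were 2.07 to 2.85 FPKM in the controls and 1.07 to 1.37 in the knockouts. Flt3, Zbtb46, Itgae, Ccr7, Xcr1 and Clec9a were under 1 FPKM throughout, and Siglech was at 0 in every library. Batf3, the other listed marker over the filter, was called lower by limma in the adipogenic knockouts, where 16.5% of all genes were.

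The 12 stromal markers, most abundantly Col1a1, summed to 1230 to 1401 FPKM in the osteogenic controls and 1377 to 1527 in the osteogenic knockouts. In adipogenic medium they summed to 1591 to 1865 FPKM in the controls and 1740 to 1796 in the knockouts. The 7 osteoblast markers, led by Alpl, summed to 15.9 to 18.8 FPKM in the osteogenic controls, 13.9 to 14.7 in the osteogenic knockouts, 38.2 to 69.7 in the adipogenic controls and 42.7 to 53.0 in the adipogenic knockouts. Without Alpl the adipogenic sums no longer overlapped, with 10.6 to 16.3 FPKM in the controls and 17.6 to 23.8 in the knockouts.

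The 7 adipocyte markers, led by Cebpa, which macrophages also express, summed to 146 to 152 FPKM in the osteogenic controls and 127 to 135 in the osteogenic knockouts. In adipogenic medium the controls had 57.5, 103 and 58.9 FPKM and the knockouts 99.2, 137 and 140. Without Cebpa the sums were 40.5 to 43.5 FPKM in the osteogenic controls, 27.3 to 30.7 in the osteogenic knockouts, 16.7 to 30.3 in the adipogenic controls and 46.3 to 50.3 in the adipogenic knockouts. The knockouts were thus below the controls in osteogenic medium and, without Cebpa, above them in adipogenic medium. The counts that follow stand beside 4.94% higher and 4.15% lower of all genes with osteogenic medium, and 16.7% and 16.5% with adipogenic medium. By limma, the stromal markers that passed in the knockouts were 5 higher and 0 lower of 10 tested with osteogenic medium, then 5 and 1 with adipogenic medium. Of 13 macrophage markers 0 were higher and 2 lower with osteogenic medium, then 0 and 9 with adipogenic medium, and of 5 tested endothelial markers 3 were higher and 0 lower in each medium. Of 6 tested osteoblast markers 0 were higher and 1 lower with osteogenic medium, then 3 and 0 with adipogenic medium, and of 3 adipocyte markers 0 and 1, then 1 and 0. Of the 2 tested dendritic cell markers 0 passed limma in osteogenic medium (0 at an unadjusted p under 0.05, and 0 with limma voom), and 1 was lower in adipogenic medium. The osteogenic counts also depended on control adipogenic library 2. Without it 1 of the dendritic cell markers, Itgax, was higher by limma, and the counts were 1 and 4 for macrophage and 6 and 1 for stromal markers, where 11.5% and 10.8% of all genes were. Without both libraries that stood apart Itgax was again higher, and 2 and 8 macrophage markers and 0 and 3 of 5 tested osteoblast markers passed, where 13.9% and 14.4% of all genes did. The adipogenic counts by limma without control adipogenic library 2 were 5 higher and 2 lower for stromal, 2 and 10 for macrophage, 4 and 1 for endothelial, 5 and 1 for osteoblast, 3 and 0 for adipocyte and 1 and 1 for dendritic cell markers, where 24.4% and 26.8% of all genes were. After rescaling to the same sum the osteogenic counts were 2 and 0 of 11 tested stromal, 0 and 2 macrophage and 3 and 0 endothelial markers. Of osteoblast, adipocyte and dendritic cell markers 0 passed, where 2.13% and 1.95% of all genes did. The adipogenic counts were 6 and 0 for stromal, 0 and 7 for macrophage and 4 and 0 for endothelial markers. They were 5 and 0 for osteoblast, 1 and 0 for adipocyte and 0 and 1 for dendritic cell markers. There 25.3% and 6.96% of all genes passed. In RNA from whole cultures fewer cells of a type and less RNA per cell cannot be told apart. What part these cell types have in the values of Aldh1a2, Crabp2 and Cyp26b1 was not tested.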

How the data were processed

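The authors deposited a table of FPKM values for 54532 Ensembl genes in 12 libraries. According to the methods, the kit was NEBNext Ultra and sequencing was on an Illumina HiSeq instrument. The reporting summary of the paper lists HISAT2 and Ballgown among the software. The submitters' processing notes list Bowtie 0.12.2 and the mouse build mm9, so the sources differ, and the aligner and build behind the values could not be settled. The gene identifiers and lengths were matched to GENCODE M21 (GRCm38), which gives the gene coordinates printed. With these lengths 98.2% to 98.4% of values of up to 30 fragments were whole within 0.02, where 4% would be by chance, so fragments were recovered from the deposited FPKM.

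Values were compared as log2(FPKM + 1) with limma 3.58.1 in R 4.3.3. Each group had its own mean in 1 fit of the 12 libraries. The prior variance followed a trend in expression, and p-values were adjusted by Benjamini-Hochberg over the 12871 genes with at least 1 FPKM in at least 3 libraries. The fit was also tried on simulated data, from which no result is given here. A fold change on this scale understates changes of low genes. Ratios of fragments are given without an interval or a test. Alternatives were another pseudocount, filter and scaling, no trend, limma voom on recovered fragments, the replicate number as a block, and each library left out.

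The 9 genes and all gene lists were chosen with earlier results of these data known. Some genes were later left out of the lists and the text for reasons unrelated to their values, and the counts were computed again. Genes named are the 9, Chd7, the 4 flow cytometry markers Itgb1, Thy1, Pecam1 and Ptprc, every listed retinoid or retinoic acid induced gene that passed in at least 1 contrast, the most abundant marker of each list, and for Aldh1a2 and Cyp26b1 genes among the 5 with the highest correlation. Other genes named (Cd38, Zbtb16 as an example, and other marker genes) were chosen after their values were seen. Aldh1a7 and Top2b were named for their position or sequence. RefSeq promoter windows were used for 6 of the 9 genes. Protein sequences were not used here.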

Additional observations from a re-analysis of the deposited data

Results flagged for a closer look

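The difference between knockout and control differed between the media for 8 of 29 tested genes on the 2 lists by the limma interaction test, 5 more positive and 3 more negative in adipogenic medium, where 10.9% and 9.58% of all genes were. The values below are the adipogenic minus the osteogenic difference on the log2(FPKM + 1) scale. Among the other pathway genes it was 0.41 for Lrp1 (limma adjusted p = 0.0439), 0.39 for Ncoa1 (0.0356), 0.28 for Adh5 (0.0269), 0.25 for Rxra (0.0376) and 0.25 for Rxrb (0.0338). It was -0.76 for Adh7 (limma adjusted p = 0.00228). Among the genes induced by retinoic acid it was -0.74 for Tgm2 (limma adjusted p = 0.0158) and -0.52 for Rai14 (0.00373). Adh7 kept its call in all 21 alternatives, while Lrp1 and Rxra each lost it in 13 of them, Ncoa1 and Rxrb in 9, Adh5 in 4, and Rai14 and Tgm2 in 1.

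For Cyp26b1 every knockout library was below the controls in osteogenic medium and above them in adipogenic medium, a difference of 1.67 (SE 0.18) between the media. For Aldh1a2 and Crabp2, whose genotypes overlapped in adipogenic medium, it was -2.01 (SE 0.24) and -1.71 (SE 0.26). These were not tested, because the genes were chosen for such differences.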

How the results depend on the processing

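The fitted differences of the 5 chosen genes over the filter, the calls of other listed genes and the counts of calls below were computed again under 21 alternatives, 12 of which left out a library. Sums, medians and fragment ratios were not. The alternative without both libraries that stood apart was added after the data had been seen. Median ratio scaling is nearly identical to the fit by construction. No direction that passed was reversed, and of 26 calls of other pathway and retinoic acid induced genes 10 were kept everywhere, as were the medium calls of Rarg and Crabp2. Depth limits the genes under 1 FPKM. With a library left out, the medium effect is no longer fully independent of the differences between genotypes.

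The medium effect of Aldh1a2 was 0.0723 to 0.26 with a library left out and 0.28 without both. For Cyp26b1 it was 0.16 to 0.31 and 0.29, and for Rdh10 0.17 by TPM (each library scaled to the same sum).

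The osteogenic genotype difference with a pseudocount of 0.1 and with limma voom was 1.82 and 1.86 for Aldh1a2, 1.77 and 1.82 for Crabp2, and -0.68 and -0.74 for Cyp26b1. The adipogenic one of Cyp26b1 was 2.11 and 2.27, with 1.17 to 1.45 for a library left out and 1.48 without both. In adipogenic medium Aldh1a2 had -0.73 to -0.35, and -0.70 without both. Without both Crabp2 had -0.0537 and Rdh10 -0.00396, and by TPM Rdh10 had 0.0536, Rarg 0.60, Aldh1a2 -0.32 and Crabp2 -0.23.

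Of other pathway genes, those passing in osteogenic medium were 1 with a filter of 0.2 FPKM, 0 to 9 with a library left out and 13 without both. In adipogenic medium they were 11 by TPM, 2 to 11 and 14. For the interaction they were 2 without a filter, 1 to 11 and 12, and for the medium 6 by TPM, 7 to 15, and 15 without both.

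Of retinoic acid induced genes, those passing in osteogenic medium were 2 with a pseudocount of 0.1, without a filter or with a filter of 0.2 FPKM, 1 to 2 with a library left out and 3 without both. In adipogenic medium they were 3 by TPM, 1 to 3, and 2 without a filter, with a filter of 0.2 FPKM, without the trend, with limma voom and without both. They were 0 by TPM and 2 to 4 for the interaction, and for the medium 0 by TPM, 1 to 2, and 4 without both.

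Of all genes, 526 passed in osteogenic medium by TPM, 522 to 2853 with a library left out and 3585 without both. In adipogenic medium 2723 to 6559 and 6575 passed, for the interaction 1754 to 5427 and 5793, and for the medium 2479 by TPM, 2928 to 6638, and 6504.

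Libraries of the same number did not correlate consistently (r of -0.29 to 0.47), so numbers were not taken as pairs. With the replicate block the medium effect of Rdh10 was 0.20 (limma adjusted p = 0.0553). With it 2 other pathway genes passed in adipogenic medium and 3 for the interaction, 2 retinoic acid induced genes passed in each medium between genotypes and 0 for the medium, and 744 of all genes passed in osteogenic medium.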
